A study of Arabidopsis thaliana with 6 samples.

Results

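The LNK genes (NIGHT LIGHT-INDUCIBLE AND CLOCK-REGULATED) encode the clock coactivators LNK1 (AT5G64170), LNK2 (AT3G54500), LNK3 (AT3G12320) and LNK4 (AT5G06980). Regions of anti-HA chromatin immunoprecipitation sequencing (ChIP-seq) were taken as LNK regions when their maximum lay inside the span of 1 of the 4 genes or within 3000 bp of it. This rule found 8 of the 1563 regions in the 4 deposited lists. The tested material was line 151 of Arabidopsis thaliana, which carries prr7-3 and expresses an HA-tagged PRR7 from the promoter of PRR7. Plants with prr7-3 and no tag were the control for the antibody, so both groups carry the prr7-3 allele. Whole seedlings were 15 days old and had grown in days of 12 h light and 12 h dark at 70 µmol per square metre per second, on Murashige and Skoog plates with 2% sucrose. HA-PRR7 was represented by 1 immunoprecipitate (IP) in experiment 1 and 1 in experiment 2, and prr7-3 by the IP of experiment 1. Experiment 2 has a pair of lists, named KC and TL, which belong to 1 sample and count as 1 replicate. HA-PRR7 was studied in this single transgenic line. The labels do not say whether plants were grown separately for each experiment, nor at what hour they were harvested.

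PRR7 belongs to the pseudo-response regulators, clock proteins that act at promoters as transcriptional repressors. LNK proteins have no DNA-binding domain of their own. They are brought to DNA by MYB factors of the REVEILLE family, RVE8 and RVE4 in particular, and activate afternoon and evening clock genes such as PRR5 and TOC1. LNK1 and LNK2 are the better studied members, and plants that lack both have a long circadian period and flower late.

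Each of the 4 LNK genes had a region in at least 1 HA-PRR7 list, and none had one in the prr7-3 list. The share of all genes with a region in any of the 3 HA-PRR7 lists was not computed. It cannot be below the 5.01% of experiment 1, so the count of 4 has no matching share here. LNK2 and LNK3 were listed in experiment 1 and in both lists of experiment 2, whereas LNK4 was listed in KC alone and LNK1 in TL alone. Experiment 1 thus held 2 of 4 LNK genes, against 5.01% of all 27444 protein-coding genes by the same rule. List KC held 3 of 4 (2.9% of all genes) and list TL 3 of 4 (2.71% of all genes). Listed in KC and also in TL were 2 of 4 (2.34% of all genes), and prr7-3 held 0 of 4 (1.03% of all genes). A region was called reproducible when an experiment 1 region overlapped a region of each experiment 2 list by at least 1 bp and none of prr7-3. This was so at 2 of 4 LNK genes, LNK2 and LNK3, and at 0.561% of all genes. With 1 HA-PRR7 IP per experiment, these counts describe the libraries and no test over samples was possible.

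**Figure D1:**
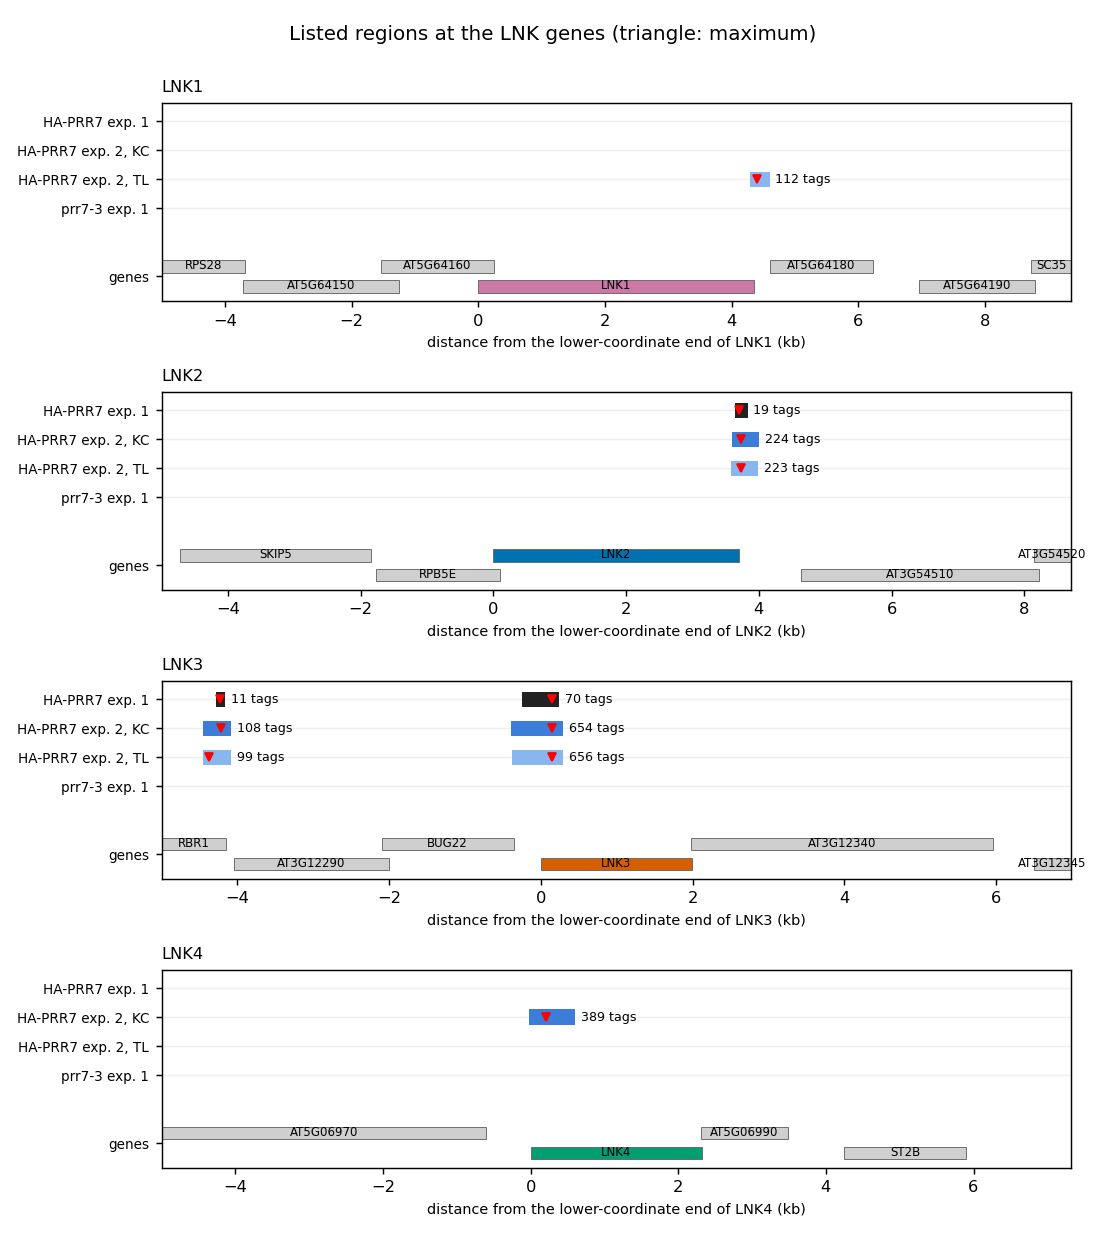
Regions of the 4 lists around LNK1, LNK2, LNK3 and LNK4, drawn as bars against the distance in kb from the lower-coordinate end of each gene, with a triangle at the maximum, the IP tags of the region beside it and protein-coding genes as boxes below. LNK2 and LNK3 have a region in each HA-PRR7 list at the same place, LNK4 has one in KC, LNK1 has one in TL, and prr7-3 has none in these windows.

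LNK3 had the highest fold and the most tags of the LNK genes in each HA-PRR7 list. Its region spanned chromosome 3 from 3923265 to 3923756 in experiment 1, from 3923122 to 3923805 in KC and from 3923140 to 3923803 in TL (TAIR10). It held 70 IP tags in experiment 1 (Poisson interval at 95%, 54.6 to 88.4), 654 in KC (605 to 706) and 656 in TL (607 to 708). These intervals, like all others given here, cover counting error only, and tag numbers of experiments 1 and 2 are not on the same scale. The tag enrichment given by the authors' caller was 18.6, 28.4 and 29.3 in the same lists, which implies a background of 3.77, 23.01 and 22.4 tags. This implied background is not a count of tags at the gene. The control tags listed for the region were 12, 1 and 1. By fold enrichment of the signal at the maximum, which was 31.9 in experiment 1, 54.99 in KC and 53.9 in TL, the region ranked 3 of 685, 5 of 380 and 4 of 355. By IP tags it ranked 13, 2 and 3. The authors' -log10 q was 253.5, 3761 and 3894. Each HA-PRR7 list therefore put LNK3 among its 5 highest regions by fold.

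The LNK3 maximum lay inside the gene, 148 bp, 150 bp and 149 bp from its lower-coordinate end in experiment 1, KC and TL. Between experiment 1 and KC the maxima differed by 2 bp, against a median of 23 bp over 77 nuclear region pairs, and between experiment 1 and TL by 1 bp, against 23.5 bp over 70 pairs. The rest of the region lay mainly in the space between LNK3 and BUG22 (AT3G12300), which took up 250 of 492 bp in experiment 1 and 359 of 684 bp in KC. The region was wider than the list median of 135 bp in experiment 1, 267 bp in KC and 269 bp in TL. Its edge reached 34 bp into BUG22 in KC and 16 bp in TL. The peak line below the region carried the peak number 2 in all 3 HA-PRR7 lists, with no line for a peak 1 in the lists used here, as in 9, 10 and 11 regions of experiment 1, KC and TL. BUG22 lay 508 bp from the maximum of experiment 1, and AT3G12340, which overlaps LNK3, and AT3G12290 lay 1835 bp and 2144 bp from it, so the distance rule alone also assigns this region to them.

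A second region stood just outside the limit on the same side of LNK3. In experiment 1 it spanned chromosome 3 from 3919229 to 3919352, with its maximum in RBR1, the retinoblastoma-related gene, 4225 bp from LNK3. It held 11 IP tags in experiment 1, 108 in KC and 99 in TL, and its fold enrichment was 12.2, 16.7 and 10.1, for ranks of 116, 72 and 292. Its control tags were 23 in experiment 1, 1 in KC and 2 in TL, so in experiment 1 they outnumbered the IP tags. These counts were not scaled for library depth here, so they cannot be compared directly. Control tags also outnumbered IP tags in the nearest experiment 1 regions beyond 3000 bp of LNK1 (30 and 11), LNK2 (16 and 9) and LNK4 (15 and 9). Its maxima in KC and TL lay 4223 bp and 4374 bp from LNK3. The nearest prr7-3 region to any LNK gene was also in RBR1, 7225 bp from LNK3, with 15 IP tags, 23 control tags and 7.998-fold enrichment.

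LNK2 was the other LNK gene present in all 3 HA-PRR7 lists. Its region spanned chromosome 3 from 20179011 to 20179205 in experiment 1, from 20178959 to 20179375 in KC and from 20178956 to 20179364 in TL. It held 19 IP tags in experiment 1 (interval 11.4 to 29.7), 224 in KC (196 to 255) and 223 in TL (195 to 254). The background implied by the tag enrichment was 2.31, 14.0 and 13.8 tags. The control tags listed for the region were 6, 0 and 0. Fold enrichment was 16.7, 40.7 and 45.3, which ranked 20, 9 and 8 in the 3 lists. By IP tags the ranks were 53, 19 and 17, so LNK2 stood lower in each list when ranked by tags. The authors' -log10 q was 25.4, 683 and 689.

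The LNK2 maximum lay between genes, 5 bp beyond the higher-coordinate end of LNK2 in experiment 1, 25 bp beyond it in KC and 27 bp in TL. The maxima of experiment 1 and KC differed by 20 bp, close to the median of 23 bp over 77 nuclear pairs. The next gene, AT3G54510, was 932 bp, 912 bp and 910 bp away. In experiment 1, 60 of 195 bp of the region lay in LNK2 and 135 bp between the genes, and in KC 112 of 417 bp lay in LNK2. The experiment 1 region lay wholly inside both experiment 2 regions and took up 46.8% of the KC region and 47.7% of the TL region. The nearest prr7-3 region was 74.4 kb from LNK2.

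Within each library LNK3 held more tags than LNK2. The ratio of LNK3 to LNK2 tags was 3.68 in experiment 1 (exact interval 2.19 to 6.48), 2.92 in KC (2.50 to 3.41) and 2.94 in TL (2.52 to 3.44). The interval of experiment 1 contains both ratios of experiment 2. The regions differed in width. Per 100 bp of region, LNK3 held 14.2 tags and LNK2 held 9.74 in experiment 1, a ratio of 1.46, and the ratio was 1.78 in KC and 1.81 in TL. The ratio of their tag enrichments was 2.25 in experiment 1, but 1.78 in KC and 1.81 in TL, the same as per 100 bp. In experiment 2 the implied background of LNK2 and LNK3 thus follows region width, and tag enrichment is no separate measure there. By fold enrichment at the maximum, LNK3 exceeded LNK2 by 1.91 times in experiment 1, 1.35 times in KC and 1.19 times in TL. Experiment 1 held 10.7% as many tags as KC at LNK3 and 8.48% at LNK2, against a median of 12.4% (range 2.06% to 28.6%) over 68 nuclear reproducible regions. These percentages are not corrected for width, which in experiment 1 and KC was 492 and 684 bp at LNK3 and 195 and 417 bp at LNK2.

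**Figure D2:**
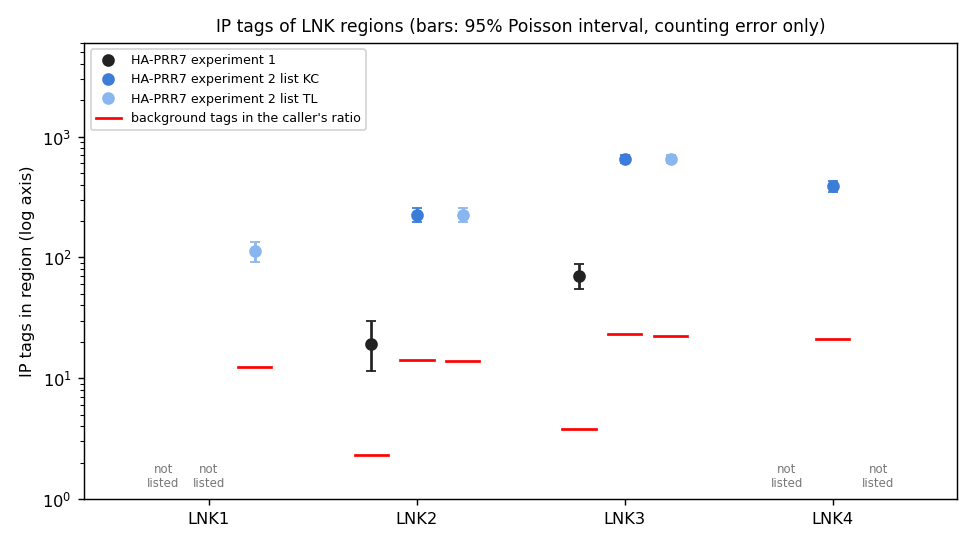
IP tags in the LNK regions of the 3 HA-PRR7 lists, on a log axis, with Poisson intervals (95%, counting error only). Red lines are the background implied by the caller's tag enrichment, which is not a count of tags at the gene. LNK3 (70, 654 and 656 tags) lies above LNK2 (19, 224 and 223 tags) in each list, and LNK4 (389 tags) and LNK1 (112 tags) appear in a single list each.

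LNK4 was among the higher regions of list KC and was not listed elsewhere. Its region spanned chromosome 5 from 2167093 to 2167719, with 389 IP tags (interval 351 to 430) and 0 control tags. The background implied by the tag enrichment was 21.1 tags. Fold enrichment was 31.2, which ranked 13 of 380, and by IP tags the region ranked 9. The maximum lay inside LNK4, 210 bp from its lower-coordinate end, and 600 of 627 bp of the region were in the gene. AT5G06970 was 819 bp from the maximum, and AT5G06990, which overlaps LNK4, 2095 bp. In KC, LNK4 held fewer tags than LNK3, at a ratio of LNK3 to LNK4 of 1.68 (exact interval 1.48 to 1.91). It held more than LNK2, at a ratio of LNK4 to LNK2 of 1.74 (1.47 to 2.06), although its fold at the maximum was lower, at 0.766 times that of LNK2.

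KC regions with as many tags as LNK4 were mostly listed in TL and experiment 1 as well. Besides LNK4, 6 nuclear KC regions held at least 389 tags, and all 6 overlapped a TL region and an experiment 1 region. Of the 8 other nuclear KC regions within 1.5 times its tags (260 to 486), 8 overlapped TL and 7 overlapped experiment 1. Over all 380 KC regions, 78.2% overlapped TL and 21.1% overlapped experiment 1. LNK4 held the most tags of the 78 nuclear KC regions with no TL region, whose median was 59 tags, and the next held 246. Region numbers in each list follow falling IP signal, and not every number is present: TL has 355 regions with numbers up to 395. Among the TL numbers whose IP signal lay within 15% of the LNK4 signal of KC (31.2), 21 were in the list and 4 were not. What regions those numbers stood for is not stated in the files or labels, so it can be said only that the list used here holds no region at LNK4. These comparisons were chosen after the LNK4 values were seen.

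LNK1 was listed in TL alone and had the fewest tags and the lowest fold of the LNK regions there. Its region spanned chromosome 5 from 25676759 to 25677066 and held 112 IP tags (interval 92.2 to 135) and 1 control tag. The background implied by the tag enrichment was 12.3 tags. The maximum lay 42 bp beyond the higher-coordinate end of LNK1 and 207 bp from AT5G64180, so the region shares a narrow space between these genes: 65 of 308 bp were in LNK1 and 243 bp between genes. In TL, LNK2 held 1.99 times the tags of LNK1 (exact interval 1.58 to 2.52) and LNK3 5.86 times (4.79 to 7.22).

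The rank of LNK1 differed between measures. Its IP signal was 18.4, rank 66 of 355, and its tags ranked 81, but its control signal was 3.78, which gave a fold enrichment of 4.87 and rank 318. In the other 7 LNK regions the control signal lay between 0 and 0.565, below the floor of 1 in the fold, so their fold equals their IP signal. The TL list held 29 regions with a control signal at least as high as that of LNK1. In TL, 88.2% of regions had 0 or 1 control tags, and in KC 86.1%, so folds of experiment 2 rest on few control tags.

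Of the 76 other nuclear TL regions with at least as many tags as LNK1, 74 overlapped a KC region and 39 an experiment 1 region. Of the 146 others within 1.5 times its tags (75 to 165), 139 overlapped KC (95.2%) and 31 overlapped experiment 1 (21.2%), against 83.4% and 20% of all TL regions. Absence from experiment 1 was thus common among TL regions of its size, and absence from KC was not. Among the KC numbers whose IP signal lay within 15% of the LNK1 signal of TL, 62 were in the list and 2 were not. These counts, too, were chosen after the values were seen.

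**Figure D3:**
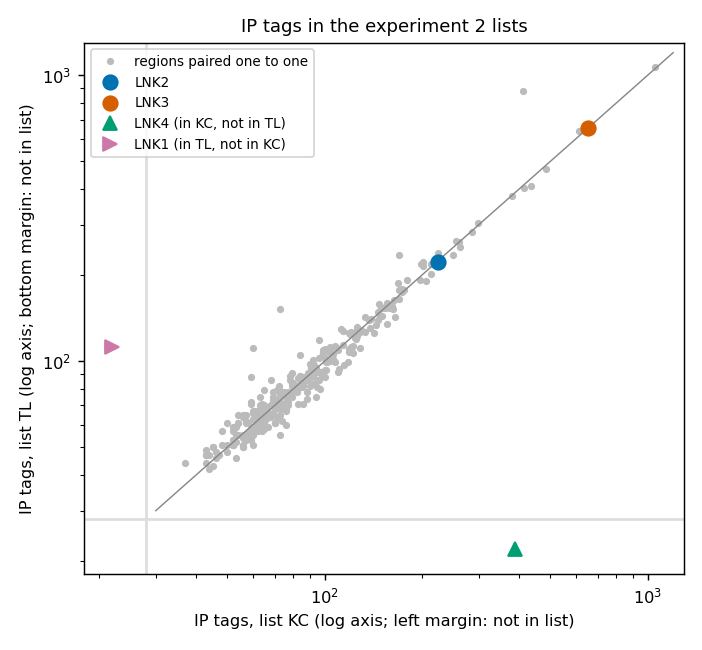
IP tags of regions paired one to one between the experiment 2 lists KC and TL, on log axes with a line of equality, and LNK genes in colour. LNK2 (224 and 223 tags) and LNK3 (654 and 656 tags) lie on the line, LNK4 (389 tags in KC) stands in the margin for regions not in TL, and LNK1 (112 tags in TL) in the margin for regions not in KC.

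At each LNK gene the maximum lay close to an end of the gene. The distance to the nearest end was 42 bp at LNK1, 5 to 27 bp at LNK2, 148 to 150 bp at LNK3 and 210 bp at LNK4. All 8 maxima, at 4 genes, were within 250 bp of an end, a window chosen after the values were seen. Among nuclear regions with a protein-coding gene within 3000 bp, the share within 250 bp of any gene end was 22.4% of 604 in experiment 1, 53.8% of 366 in KC, 53.6% of 343 in TL and 11.2% of 116 in prr7-3. The maxima were outside the gene at LNK1 and LNK2 and inside it at LNK3 and LNK4. Among the same nuclear regions, the maximum lay inside a gene in 76.0% in experiment 1, 32.2% in KC, 32.9% in TL and 93.1% in prr7-3. The gene table gives no strand, so which end of each LNK gene is the start of transcription was not determined.

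**Figure D4:**
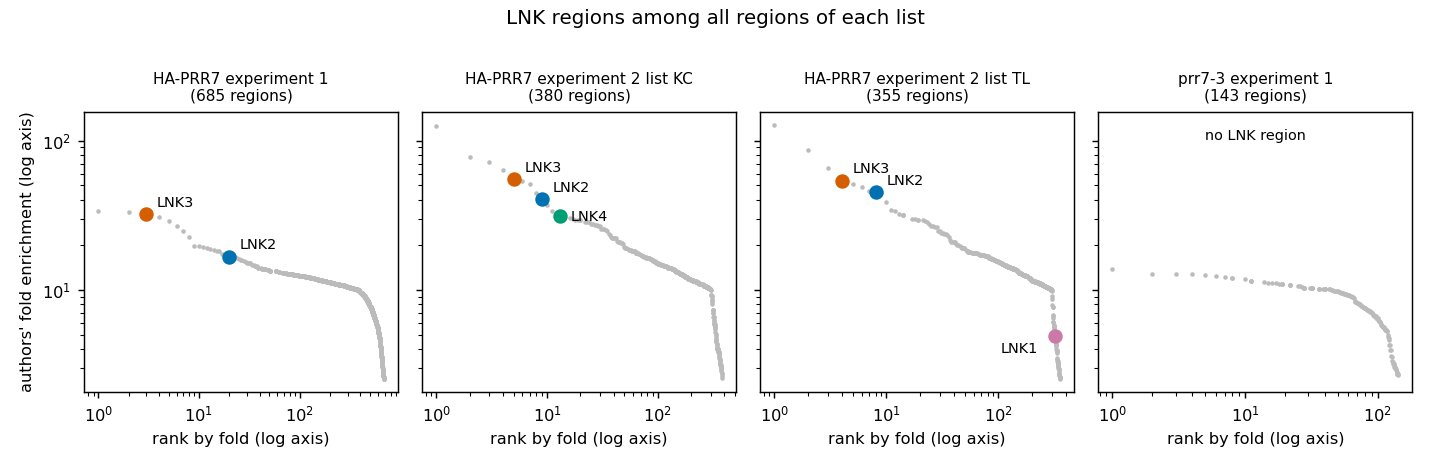
Authors' fold enrichment against rank by fold in each list, both on log axes, with every region in grey and LNK regions in colour. LNK3 (ranks 3, 5 and 4) and LNK2 (ranks 20, 9 and 8) lie near the top of the HA-PRR7 lists, LNK4 ranks 13 in KC, LNK1 ranks 318 in TL, and prr7-3 has no LNK region.

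The regions most like LNK3 and LNK2 in rank were sought among the 69 other reproducible regions. Likeness was the distance between log2 ranks by fold over the 3 HA-PRR7 lists, which come from 2 samples, and it is a description. Nearest to LNK3 were the regions at PRR9 (distance 1.03, ranks 2, 3 and 3), a pseudo-response regulator gene, at BBX28 (distance 1.81, ranks 5, 2 and 2), a B-box protein gene, and at AT5G15950 (distance 2.78, ranks 9, 22 and 7). Nearest to LNK2 were GI (distance 1.10, ranks 31, 6 and 5), which encodes the clock and flowering regulator GIGANTEA, AT5G15950 (distance 1.74) and LHY (distance 1.95, ranks 63, 14 and 14), a MYB gene of the morning. Another experiment 1 region at GI, with 10 tags and rank 378, overlapped the same KC and TL regions and is also among the 69. In tags LNK3 differed from PRR9, which held 50 in experiment 1, 381 in KC and 378 in TL.

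The regions next to the LNK genes in rank were of mixed kind. LNK3 stood just below PRR9 in experiment 1 (33.4-fold) and in TL (65.5-fold), and just below DDB2, a DNA repair gene, in KC (63.6-fold). Below it came DDB2 in experiment 1 (30.9-fold) and GI in KC (53.5-fold) and TL (51.3-fold). In TL the DDB2 region was 9.12-fold and ranked 301, although it held 260 tags in KC and 261 in TL. LNK2 in experiment 1 stood between regions in AT1G01570 (16.95-fold) and AT5G64910 (16.6-fold). In KC it stood between AGL44 (44.3-fold), a MADS-box gene, and MIPS1 (37.2-fold), an inositol synthesis gene, and in TL between AT5G15950 (45.6-fold) and AGL44 (44.5-fold). LNK4 in KC stood between EXO70H7 (31.5-fold) and AT3G55570 (30.6-fold), and LNK1 in TL between BT2 (4.89-fold) and COL4 (4.85-fold).

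The genes that act with LNK proteins were taken as a list of 8 MYB partner genes and 7 clock and flowering genes known as targets of RVE8 and the LNK proteins. Of the 8 partners, 3 had a region in experiment 1 (5.01% of all genes), 4 in KC (2.9%), 4 in TL (2.71%) and 0 in prr7-3 (1.03%). CCA1 and LHY, the morning MYB genes, were listed in all 3 HA-PRR7 lists, CCA1 with 82, 1054 and 1072 IP tags and LHY with 29, 299 and 305. The gene nearest to the experiment 1 maximum assigned to CCA1 was PSI-P (AT2G46820), at 221 bp. RVE8, a partner of LNK1 and LNK2, was listed in experiment 1 alone (17 tags, 10.2-fold, rank 331). RVE4 (68 tags in KC and 70 in TL) and RVE3 (139 and 141 tags) were listed in both experiment 2 lists and not in experiment 1. RVE6, RVE5 and MYB3 were in no list. By fold, LNK3 ranked above CCA1 in experiment 1 (ranks 3 and 6) and below it in KC and TL, where CCA1 ranked 1. By tags it stood below CCA1 in each of the 3 lists, and by either measure it stood above the other partner genes.

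Of the 7 target genes, which differ in their time of day of expression, 5 had a region in experiment 1 (5.01% of all genes), 4 in KC (2.9%), 4 in TL (2.71%) and 0 in prr7-3 (1.03%). PRR9 and GI ranked near LNK3 and LNK2, as given above. LUX, a gene of the evening complex, held 17, 255 and 263 tags, and PRR5 held 14, 170 and 165. By fold LUX ranked 73, 34 and 302 and PRR5 ranked 524, 305 and 40, so KC and TL ranked both genes differently at similar tags. The gene nearest to the experiment 1 maximum assigned to LUX was AT3G46630, at 159 bp. FKF1, an F-box gene of flowering, was listed in experiment 1 alone with 9 tags (11.8-fold, rank 148). TOC1 and ELF4 were in no list. In all, 6 of these 15 genes had a reproducible region, against 2 of the 4 LNK genes and 0.561% of all genes.

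**Figure D5:**
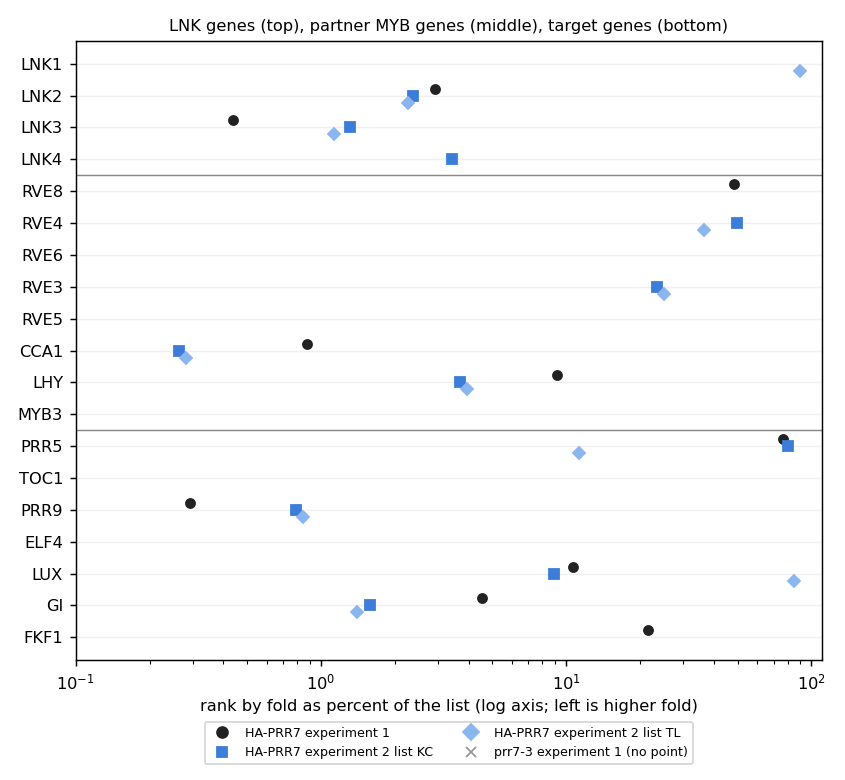
Rank by fold as a percentage of each list, on a log axis with higher enrichment to the left, for the LNK genes, their MYB partner genes and target genes. LNK3 (0.438%, 1.32% and 1.13% of experiment 1, KC and TL) and LNK2 (2.92%, 2.37% and 2.25%) lie with CCA1, PRR9 and GI at the left, and prr7-3 gives no point for any gene shown.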

How the data were processed

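The submitters' processing notes name Bowtie as the aligner and TAIR10 as the build. No source used here names the peak caller, its settings or its control library. The deposited lists give, per the tag names in the files, the signal of IP and control at each maximum, a fold enrichment (the ratio of both, with a control below 1 raised to 1), counts of IP and control tags, a tag enrichment and -log10 p and q values, all as the authors' caller wrote them. Peaks were listed per sample. Background tags were computed here as IP tags over tag enrichment. Gene spans came from the RefSeq table of assembly TAIR10.1, whose coordinates are not printed. Promoter motifs were planned and are not analysed here, nor is the prr7-3 IP of experiment 2. List sizes were 685 (HA-PRR7 experiment 1), 380 (KC), 355 (TL) and 143 (prr7-3), with at least 6, 37, 38 and 11 IP tags per region. Tag intervals are exact Poisson intervals, and tag ratios have exact binomial (Clopper-Pearson) ones. Assignment of regions to genes was tested on simulated data. Python 3.11.15, pandas 2.3.3 and scipy 1.17.1 were used. The members, gene lists and tests were chosen with earlier results of these data known. Named genes were the LNK genes, genes within 3000 bp of their maxima, the 3 most alike reproducible regions, regions adjacent in rank, and the partner and target genes. RBR1, PSI-P and AT3G46630 were named after their values were seen.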

Additional observations from a re-analysis of the deposited data

How the results depend on the processing

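Of 33 counts of LNK genes under other settings (gene distances of 1000 bp and 5000 bp, the nearest gene alone, any base of a region, and the upper part of each list by fold or by q rank), 31 equalled the value reported. With overlap required over 50% of each region, reproducible LNK genes were 1, since the experiment 1 region of LNK2 covers 46.8% of the KC region. With regions at or above the median fold, TL held 2 LNK genes, because LNK1 ranked 318. Without HA-PRR7 replicate 1 and without replicate 2 the count of reproducible LNK genes was 2. Both settings are among the 33 counts, but leaving out a replicate only removes a requirement of the rule, so they do not test reproducibility. Of 18 other ranks of LNK2 and LNK3, 5 moved beyond the binomial interval of the rank, 4 of them by IP tags. That interval was used as a yardstick only, since it measures no spread between rankings of the same regions. No paired analysis was possible because counts and ranks come from no test and 1 prr7-3 list was used. Experiment 1 regions rest on few tags, which limits LNK2 (19 tags), and the thin control limits folds in experiment 2.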
